A study of Mus musculus with 9 samples.

Results

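The imprinted Dlk1-Dio3 microRNAs (miRNAs) were followed in primary visual cortex of mice whose vision had been withheld. Members were chosen by name: every mouse miRNA on the array whose number belongs to a hairpin of this locus, either arm, without the names ending in a star. This gave 57 of the 611 mouse miRNA names on the array. They comprised 39 names from the dense Mir379-Mir410 cluster and 18 from the Meg3 side of the locus, which includes the hairpins antisense to Rtl1. The names miR-134, miR-329, miR-381 and miR-485 lie in the same cluster but were left out by the naming rule, and they are given separately as neighbours. All samples were C57BL6 mice at postnatal day 28, with 3 arrays per group. The monocularly deprived mice had the lids of 1 eye sutured from postnatal day 24 for 4 days, and RNA came from the visual cortex opposite that eye. The dark-reared mice were kept without light from birth, and the control mice had a normal light cycle. The labels do not tell whether each array held 1 animal or a pool, and the p-values cover only the scatter of these arrays, which may be technical in part or in full.

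The Dlk1-Dio3 domain of mouse chromosome 12 is expressed according to parent of origin. The paternal copy gives the protein-coding genes Dlk1, Rtl1 and Dio3, and the maternal copy gives the long noncoding RNAs Meg3, Rian and Mirg together with the miRNAs that are processed from these transcripts. The miRNAs are abundant in brain, and in cultured neurons the Mir379-Mir410 cluster is known as a target of the activity-regulated factor Mef2. Its member miR-134 is known for limiting dendritic spine size through Limk1. The miRNAs antisense to Rtl1, among them miR-127, miR-136, miR-431, miR-433 and miR-434, are known to repress the Rtl1 transcript they overlap.

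In the RefSeq table (build GRCm38.p6), 55 of the 57 names matched a mature sequence, and every matched hairpin lay on chromosome 12 between Dlk1 (chr12:109452485-109463336) and Dio3 (chr12:110279230-110281097). The 31 matched hairpins of the Mir379-Mir410 cluster filled chr12:109709060-109743795, a span of 34.7 kb on the plus strand. The 13 hairpins of the Meg3 side spanned 54.6 kb at chr12:109563692-109618336. The 2 names without a match were miR-376c and miR-487b. The mature sequences below belong to the members whose level passed the test in a comparison, and to miR-136, whose arms went in opposite directions. They are written 5′ to 3′ as RefSeq gives them, with the seed (bases 2 to 8) in capitals. No 2 of the 55 members shared a seed.
miR-337-3p: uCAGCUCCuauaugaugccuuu
miR-127: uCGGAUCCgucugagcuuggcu
miR-434-5p: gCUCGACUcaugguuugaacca
miR-411: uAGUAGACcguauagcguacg
miR-380-3p: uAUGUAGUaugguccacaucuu
miR-323-3p: cACAUUACacggucgaccucu
miR-154: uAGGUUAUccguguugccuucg
miR-409-5p: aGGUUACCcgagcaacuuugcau
miR-409-3p: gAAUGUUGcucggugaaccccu
miR-667: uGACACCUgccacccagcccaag
miR-136: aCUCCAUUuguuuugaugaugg
miR-136*: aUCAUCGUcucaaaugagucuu

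Among the members and neighbours, seeds differed even where mature sequences were close. Among the names ending in a star, miR-376b* and miR-376c* had 21 of 22 bases equal and did share a seed. The closest pair among the members and neighbours by position-by-position match was miR-300 and its neighbour miR-381, with 19 of 22 bases equal. Among the members, miR-376a and miR-376b had 18 of 21 bases equal.
miR-300: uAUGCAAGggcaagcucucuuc
miR-381: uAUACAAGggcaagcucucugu
miR-376a: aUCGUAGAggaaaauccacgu
miR-376b: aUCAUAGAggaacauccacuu
The median GC content was 45.5% in the Mir379-Mir410 cluster and 58.1% on the Meg3 side, against 52.2% over the 1738 mature mouse miRNAs of the table. The members measured well enough to test had a median of 47.6%, and those not tested had 56.5%.

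Each array carried 1 sample of 100 ng of RNA labelled with Cy3, and the values are background-subtracted fluorescence intensities divided by the 75th percentile of the array. Levels are given as log2 of that ratio, so 0 is the 75th percentile and values were floored at -7.88. Feature Extraction, the scanner software, called 36 to 43 of the 57 members detected per array. Testing was limited to miRNAs detected throughout 1 or more groups, 318 in all, among them 39 members (27 of Mir379-Mir410 and 12 of the Meg3 side). Any member that passed only through a group in which it was high could do so by differing, and 36 members were detected on all 9 arrays. The 3 tested members not detected throughout were miR-299 and miR-380-5p, each detected on 5 arrays, and miR-665 on 7. Control and dark-reared arrays lay on 1 slide read in 1 scan, and the monocularly deprived arrays lay alone on another slide and scan. In comparisons with the monocularly deprived arrays, a slide difference and a group difference cannot be told apart. The arrays' control spots differed between the slides too. Of 38 kinds of control spot, 6 were lower and 1 was higher on all 3 monocularly deprived arrays than on any of the other 6. The widest gap was that of the bright corner spots, at 476 to 723 unscaled intensity units on the monocularly deprived arrays, against 9079 to 10699 on dark-reared and 11075 to 15179 on control arrays. The part of this slide difference in the members' changes was not tested.

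A further 14 members were detected on no array. They were miR-323-5p, miR-453, miR-544, miR-654-3p, miR-654-5p, miR-666-5p, miR-668, miR-679, miR-758, miR-1193 and miR-1197 of the Mir379-Mir410 cluster, and miR-493, miR-673-3p and miR-673-5p of the Meg3 side. Another 4 were detected on too few arrays to be tested, namely miR-412 on 1 array, miR-540-5p on 2, miR-770-5p on 3 and miR-540-3p on 4. The values of miR-770-5p were -7.88 on all 3 monocularly deprived arrays, which is the floor. They were -6.42, -5.99 and -6.18 on dark-reared arrays, and -6.15, -6.00 and -6.08 on control arrays. Its probes were well above background on only 1 dark-reared and 1 control array, so no fold is given.

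The 6 members of highest mean signal were miR-434-3p, miR-127, miR-376a, miR-300, miR-136 and miR-487b. Signals of different miRNAs come from different probes and are not set against each other as abundances. MiR-434-3p, from a hairpin antisense to Rtl1, measured 1.75, 1.99 and 1.76 on the monocularly deprived arrays. It measured 1.79, 1.65 and 1.79 on the dark-reared arrays and 1.58, 1.56 and 1.79 on the control arrays. The groups overlapped. MiR-376a, whose hairpin belongs to a set of close paralogues within the cluster, measured 0.95, 1.33 and 1.01 on monocularly deprived arrays. It measured 1.04, 0.64 and 1.07 on dark-reared arrays and 1.099, 0.97 and 0.93 on control arrays. Here too the 3 groups overlapped.

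**Figure D1:**
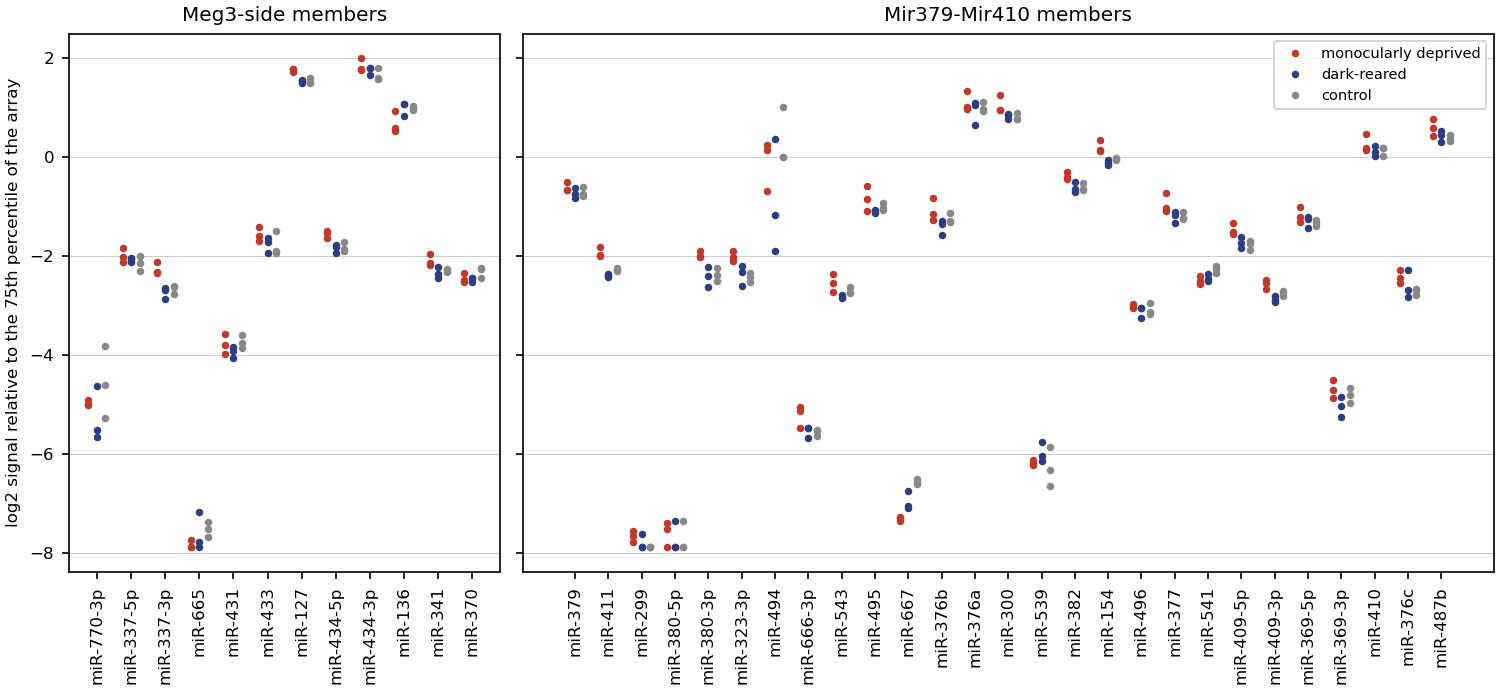
Level of each of the 39 tested members on every array, as log2 of the scaled signal, with 1 point per array and the groups side by side in the order monocularly deprived, dark-reared, control. Members run in chromosome order within each panel (miR-376c and miR-487b, which matched no position, come last); most lie close together across groups, while miR-494 and miR-770-3p spread widely within groups and miR-667 steps down to -7.31 on average in monocularly deprived cortex.

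The members were measured with little scatter between arrays of a group. The pooled standard deviation within groups had a median of 0.12 over the 39 tested members, against 0.15 over all 318 tested miRNAs, on the log2 scale. The widest was 0.80, for miR-494, followed by 0.53 for miR-770-3p. The 95% interval of a member's change reached a median of 0.24 on the log2 scale to either side, or 1.18-fold, and for 37 of 39 members it reached less than 1.5-fold. Many members nevertheless ranked alike on single arrays. Monocularly deprived replicate 2 was the highest of its group for 31 of the 39 members, and dark-reared replicate 3 was the highest of its group for 29. Dark-reared replicate 2 was the lowest of its group for 25. The ranks were counted over members only, so they do not set the members apart from all tested miRNAs.

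Dark rearing asks what the locus does in a cortex that has never received visual input. No member passed the test (0 of 39, adjusted p under 0.05 by limma), and only 0.629% of all tested miRNAs did. One member, miR-667, had an unadjusted p under 0.05. The members' changes were small, with a median of -0.03 against 0.05 over all tested miRNAs, and 26 of 39 lay below 0. Within the pairs of same-numbered arrays, 14 of 39 members (35.9%) were lower in dark-reared cortex in all 3 pairs. In no pair lower were 3 members (7.69%), beside 18.6% and 26.7% of all tested miRNAs. Pairs with equal values, as at the floor, count as not lower. Of these 3 members, miR-299 differed by 0, 0 and 0.27. Against the median of all tested miRNAs, 32 of 39 members lay below it, and 29 to 31 did so under the other scalings, so this count rests on small shifts of many members. In the dark-reared arrays a change of RNA level per cell and a change in the number of cells that make the RNA cannot be told apart, which holds for every comparison of this bulk tissue.

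The widest difference after dark rearing was that of miR-494. It measured 0.35, -1.17 and -1.91 on dark-reared arrays, against 1.00, -0.0024 and -0.00023 on control arrays. The groups overlapped, because the highest dark-reared value exceeded the lowest control value. The change of -1.24 had a standard error of 0.56 and an adjusted p of 0.510, and its interval ran from -2.53 to 0.05. Both probes of miR-494 were well above background on all 9 arrays and changed by -1.22 and -1.31. Replicates of the same number shared a column of the slide in these 2 groups, and their deviations went together over all miRNAs (r of 0.32 to 0.89). Control replicate 2, however, went more closely with dark-reared replicate 3 (0.61) than with dark-reared replicate 2 (0.32). Within those pairs miR-494 differed by -0.65, -1.17 and -1.91, lower in dark-reared cortex each time, and the fit with the replicate number as a block gave an adjusted p of 0.181. That fit also called 0 of 39 members, and 4 had an unadjusted p under 0.05.

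Of the 4 probes of miR-770-3p, whose hairpin lies within Meg3, the shortest also matches miR-7087-5p in the RefSeq table, and that probe was well above background on no array. MiR-770-3p measured -5.65, -4.62 and -5.52 on dark-reared arrays and -3.83, -4.61 and -5.27 on control arrays. The difference of -0.69 ± 0.37 (SE) was within this scatter (adjusted p = 0.558). MiR-541 was low on all 3 dark-reared arrays, at -2.47, -2.51 and -2.37, against -2.34, -2.21 and -2.28 on control arrays, and changed by -0.17 (adjusted p = 0.510). Groups did not overlap for 6 members, all of them lower in dark-reared cortex, which was 15.4% of those tested, beside 18.6% of all tested miRNAs (7.86% in that direction). The other members closest to the threshold were miR-370 (-0.15), miR-369-3p (-0.23, well above background on 7 of 9 arrays), miR-411 (-0.12), miR-431 (-0.20), miR-539 (0.29) and miR-409-3p (-0.12). They were followed by miR-376b, miR-543, miR-434-3p, miR-299, miR-154, miR-495, miR-376c, miR-337-3p, miR-337-5p and miR-376a, whose changes lay between -0.16 and 0.11. Only the longest of the 4 probes of miR-539 was well above background on any array, on 8 of 9, and it changed by -0.04.

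**Figure D2:**
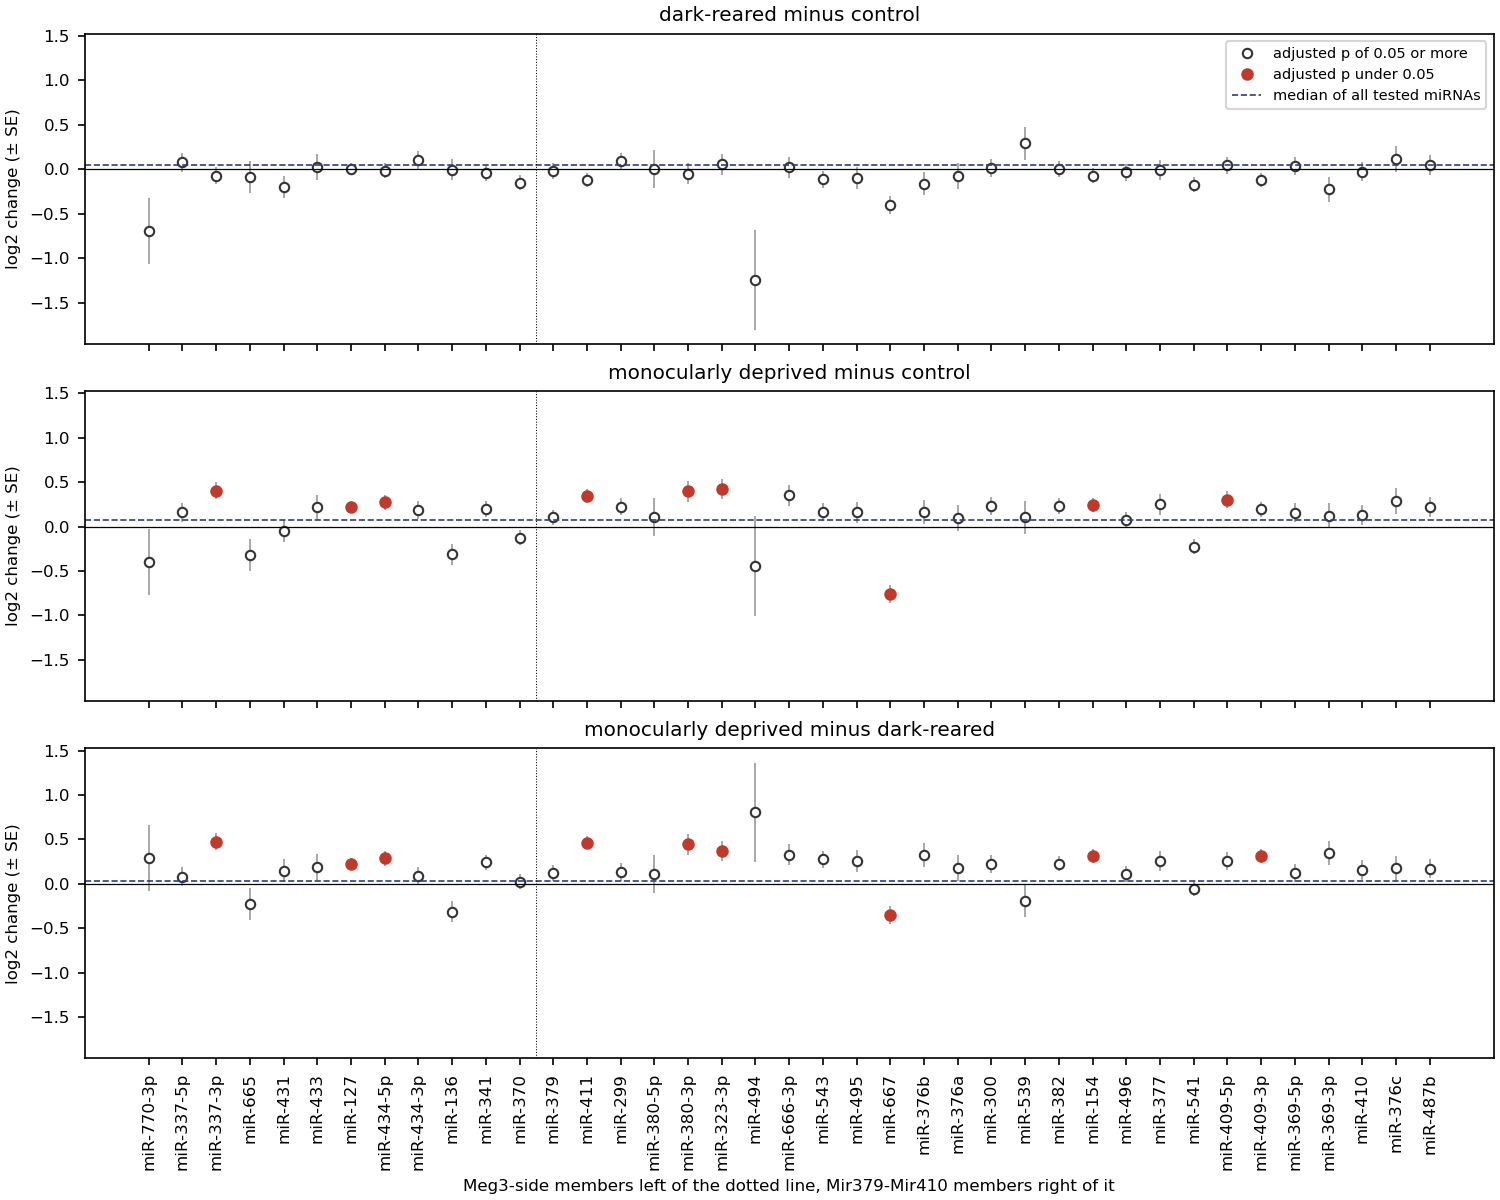
Log2 change of each tested member with its standard error in the 3 comparisons, with Meg3-side members left of the dotted line and Mir379-Mir410 members right of it; filled points passed an adjusted p of 0.05 and the dashed line is the median of all 318 tested miRNAs. No member passed in dark-reared minus control, and in each comparison with monocularly deprived cortex 8 members passed above 0 and miR-667 below it.

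Monocular deprivation, a short closure of 1 eye during the critical period, was compared with normal rearing. In monocularly deprived cortex 8 of the 39 members were higher and 1 was lower than in control cortex, each increase between 1.17-fold and 1.34-fold. Over all tested miRNAs 33% passed, 15.7% higher and 17.3% lower, so the 20.5% of members that were higher stood near the background while the 2.56% that were lower stood under it. That background holds many dim miRNAs. Among the 237 miRNAs well above background on all 9 arrays, 40 were higher and 28 lower, beside 8 and 0 of 33 members. Among the other 81, 10 were higher and 27 lower, beside 0 and 1 of 6 members. The 5 higher members of Mir379-Mir410 were miR-411, miR-323-3p, miR-380-3p, miR-409-5p and miR-154, and the 3 of the Meg3 side were miR-337-3p, miR-127 and miR-434-5p. The median change of the members was 0.17, against 0.08 over all tested miRNAs. Above 0 lay 31 of 39 members, a count that turned to 12 of 39 without scaling between arrays, where the median of all miRNAs was -0.15. Measured against the median of all tested miRNAs, 30 of 39 members lay above it both with and without scaling, and 24 to 29 did under quantile normalization and under scaling on all probes. The calls themselves depended on such choices: no member passed without scaling or with normexp background correction, 31 passed with scaling on all probes, all of them higher, and 5 passed in a fit of only these 2 groups. Scaling on all probes called 201 of all 318 tested miRNAs higher and 33 lower, so most miRNAs passed with the members.

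MiR-411, the second hairpin of the Mir379-Mir410 cluster in the order of the chromosome, had the smallest p among the higher members. It measured -2.00, -1.82 and -1.98 on monocularly deprived arrays, against -2.25, -2.27 and -2.31 on control arrays. All 3 deprived arrays lay above all 3 control arrays. The change was 0.34 ± 0.08 (SE), or 1.27-fold (adjusted p = 0.0112), and its 2 probes changed by 0.37 and 0.28. Leaving out each array in turn kept this call in 9 of 9 fits. With normexp background correction, however, miR-411 changed by -0.0540, and miR-323-3p, miR-337-3p, miR-380-3p, miR-409-5p and miR-434-5p also turned below 0 against control, between -0.11 and -0.0163, none of them passing the test. In dark-reared minus control miR-411 did not pass the test (-0.12, adjusted p = 0.614).

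MiR-323-3p and miR-380-3p come from hairpins close to each other in the same cluster. MiR-323-3p measured -2.10, -1.90 and -2.02 on monocularly deprived arrays and -2.52, -2.42 and -2.35 on control arrays, a change of 0.42 ± 0.12 (SE, adjusted p = 0.0244). MiR-380-3p measured -2.03, -1.91 and -2.00 on monocularly deprived arrays and -2.38, -2.50 and -2.24 on control arrays, a change of 0.40 ± 0.12 (SE, adjusted p = 0.0360). Neither pair of groups overlapped. MiR-409-5p changed by 0.30 (adjusted p = 0.0471) and miR-154 by 0.25 (adjusted p = 0.0497), so both stood close to the threshold. The call of miR-154 was lost in 9 of 9 fits that left out 1 array, that of miR-409-5p in 8, that of miR-380-3p in 6 and that of miR-323-3p in 4.

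On the Meg3 side, miR-337-3p measured -2.32, -2.13 and -2.34 on monocularly deprived arrays, against -2.63, -2.77 and -2.60 on control arrays. The change was 0.40 ± 0.10 (SE, adjusted p = 0.0146), and its 3 probes changed by 0.32, 0.43 and 0.41. The miRNA antisense to Rtl1 with the best known action on that transcript, miR-127, measured 1.71, 1.77 and 1.77 on monocularly deprived arrays and 1.51, 1.48 and 1.58 on control arrays. The groups did not overlap and the change was 0.22 ± 0.07 (SE, adjusted p = 0.0364). Its 2 probes disagreed in size, however, at 0.29 and 0.02. The probes of miR-434-5p disagreed likewise, at 0.32 and 0.08, beside a change of 0.27 ± 0.09 (SE, adjusted p = 0.0414). Of the 9 fits that left out 1 array, the call was lost in 7 for miR-434-5p, in 6 for miR-127 and in 1 for miR-337-3p.

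The 2 probes of miR-127, whose changes of 0.29 and 0.02 stand above, are shown because they differ by a single base. They are written here 5′ to 3′ as the array files give them, with that base in capitals. Both pair with the 3′ end of the miRNA and both were well above background on all 9 arrays.
miR-127 longer probe: agccaagctcagacggaT
miR-127 shorter probe: agccaagctcagacgga
Of the 162 probes of the members, 151 pair with the 3′ end of the RefSeq mature sequence over their whole length, 5 pair inside it, and 6 belong to the 2 names without a match. Their lengths run from 10 to 22 bases. In monocularly deprived minus control, 30 members had more than 1 probe well above background on all 9 arrays. In 3 of them those probes differed in sign, with the shorter below 0. They were miR-433 (shorter -0.21, longer 0.25), miR-379 (-0.18, 0.18) and miR-337-5p (-0.01, 0.22). The shorter probe also lay lower for miR-434-3p (0.01, 0.27), but higher for miR-410 (0.17, 0.09) and miR-494 (-0.40, -0.53). The part of probe length in the changes was not tested.

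MiR-667 was the 1 member lower in monocularly deprived cortex. It measured -7.28, -7.36 and -7.29 on monocularly deprived arrays, -7.09, -7.04 and -6.75 on dark-reared arrays, and -6.57, -6.49 and -6.61 on control arrays. The 3 groups did not overlap, with the dark-reared arrays in between. The change from control was -0.75 ± 0.10 (SE), or 0.59-fold (adjusted p = 0.00082). It rests on dim signal. Only the longest of its 4 probes was well above background on any array, on 7 of 9, and that probe alone changed by -0.22, which did not pass the test. The other 3 probes lay at or near the floor and changed by 0, -0.63 and -0.35, so no single probe changed by as much as the miRNA. Probes were averaged before the floor was set, so probe values under the floor could enter the level. The direction of the miRNA turned under quantile normalization, to 0.03. The probes are nested from the same end.
miR-667 probe 1: cttgggctgg
miR-667 probe 2: cttgggctggg
miR-667 probe 3: cttgggctgggt
miR-667 probe 4: cttgggctgggtg

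None of the other 5 brightest members passed the test. MiR-136 measured 0.58, 0.92 and 0.52 on monocularly deprived arrays, against 1.02, 0.94 and 1.00 on control arrays, and was the only member of the 6 brightest with a negative change (-0.31 ± 0.12 SE, adjusted p = 0.0827). All 3 deprived arrays lay below all 3 control arrays, and its 2 probes changed by -0.54 and -0.25. MiR-300 changed by 0.23 (adjusted p = 0.107), miR-487b by 0.22 (0.150), miR-434-3p by 0.19 (0.184) and miR-376a by 0.10 (0.619). The remaining members nearest the threshold were miR-666-3p (0.35), miR-541 (-0.22), miR-382 (0.23), miR-409-3p (0.19), miR-299 (0.23), miR-341 (0.20), miR-377 (0.25) and miR-376c (0.29), with adjusted p between 0.0571 and 0.153. MiR-299 was at the floor on all 3 control arrays, so its change has no measured reference.

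Groups did not overlap for 20 of the 39 members, 16 higher and 4 lower in monocularly deprived cortex. That is 51.3% of the members, beside 52.8% of all tested miRNAs (28.6% higher and 24.2% lower). Array by array, the median member stood 0.15, 0.33 and 0.09 above the control mean on the monocularly deprived arrays. On dark-reared arrays it stood at -0.03, -0.13 and 0.05, and on the control arrays themselves at -0.04, -0.02 and 0.06. Within monocularly deprived cortex replicate 2 was thus the highest, and without it the median of the members less that of all miRNAs was 0.10, beside 0.09 with all arrays.

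**Figure D3:**
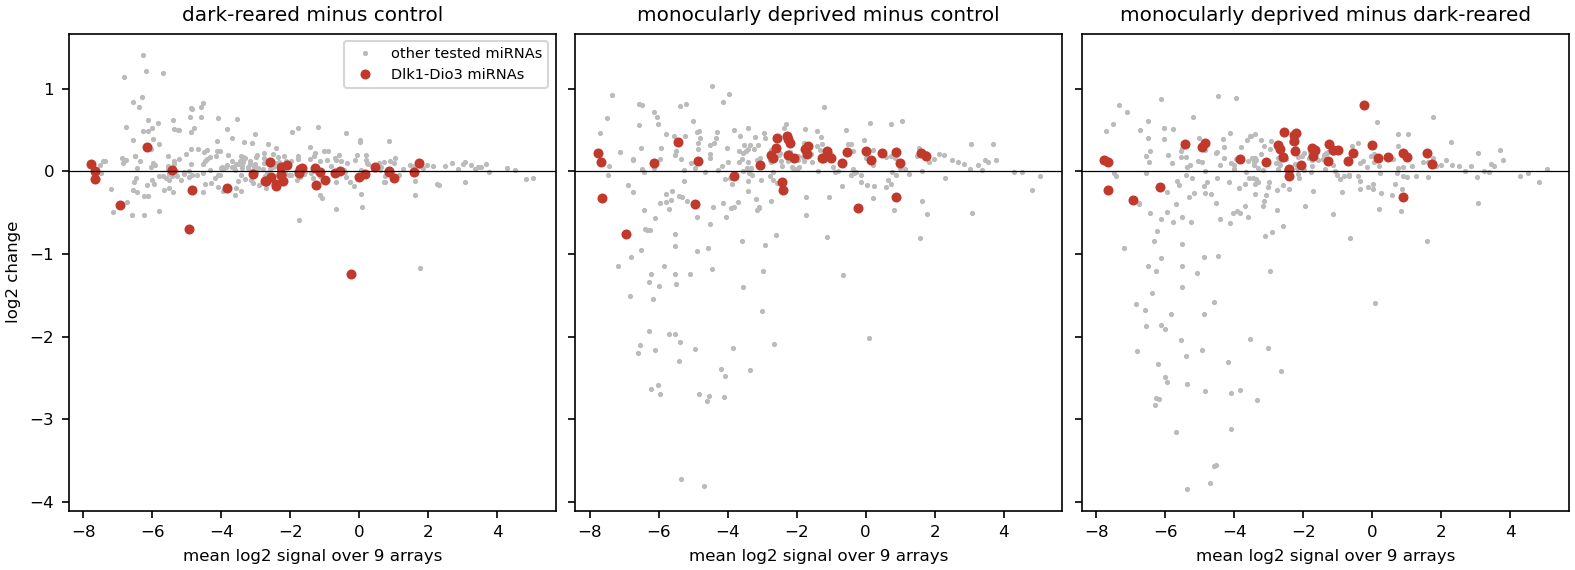
Log2 change of every tested miRNA against its mean log2 signal over 9 arrays in the 3 comparisons, with the 39 Dlk1-Dio3 members as large red points and the other 279 miRNAs as small grey points. In both comparisons with monocularly deprived cortex the members sit mostly just above 0, while many dim miRNAs outside the locus lie far below 0.

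Many of the strongest decreases in monocularly deprived cortex were those of dim miRNAs outside the locus. Of 318 tested miRNAs, 237 were well above background on all 9 arrays, and 33 of these were members. In this bright set the median change in monocularly deprived minus control was 0.19 for the members and 0.12 for all. Among the dimmer ones it was 0.11 for 6 members and -0.31 for all 81. A large miRNA cluster within the Sfmbt2 gene, known as a rodent-specific and placenta-expressed set, was measured on the same arrays. Its 17 tested names, 9 of them detected on all 9 arrays, had a median of -1.15 in monocularly deprived minus control. In that comparison 4 were lower (23.5%) and 2 higher (11.8%), beside 17.3% and 15.7% of all tested miRNAs. Their median was 0.53 in dark-reared minus control, where none passed the test. Those not detected on all 9 arrays were tested through a group in which they were detected throughout. Such names could enter by differing, so both medians may depend in part on the filter. No test was made of the difference between these lists.

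The direct comparison of the 2 forms of deprivation again placed most members higher in monocularly deprived cortex. Against dark-reared cortex, 8 members were higher and 1 was lower of 39, beside 28.6% of all tested miRNAs (9.75% higher and 18.9% lower). The median change of the members was 0.22, against 0.03 over all tested miRNAs, and 34 of 39 lay above 0. Under the other scalings 32 to 39 lay above 0, and 31 to 33 lay above the median of all miRNAs in all 4 scalings. This comparison and the one with control share the monocularly deprived arrays. Here too no member passed without scaling or with normexp, 35 passed with scaling on all probes, and 2 passed in a fit of only these 2 groups. Scaling on all probes called 213 of all 318 tested miRNAs higher and 35 lower.

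MiR-411 measured -2.42, -2.40 and -2.37 on the dark-reared arrays, clearly under the monocularly deprived values given above, and changed by 0.47 ± 0.08 (SE), or 1.38-fold (adjusted p = 0.0032). MiR-337-3p measured -2.70, -2.87 and -2.65 on dark-reared arrays and was 0.48 ± 0.10 (SE) higher in monocularly deprived cortex (adjusted p = 0.00901). MiR-380-3p was 0.45 higher (adjusted p = 0.0275), miR-154 was 0.32 higher (0.0243) and miR-323-3p was 0.37 higher (0.0449). MiR-434-5p was higher by 0.29 (0.0393) and miR-127 by 0.23 (0.0399). Of the 9 fits that left out 1 array, the call was kept in 9 for miR-411 and miR-337-3p, in 7 for miR-154, in 4 for miR-380-3p, in 2 each for miR-434-5p and miR-127, and in 1 for miR-323-3p. With normexp, miR-323-3p (-0.0221), miR-337-3p (-0.0392), miR-434-5p (-0.00086) and miR-409-3p (-0.17) turned below 0 in this comparison.

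MiR-409-3p, from the last part of the cluster, measured -2.55, -2.48 and -2.67 on monocularly deprived arrays, against -2.93, -2.90 and -2.81 on dark-reared arrays, a change of 0.31 ± 0.08 (SE, adjusted p = 0.0236). Against control it changed by 0.19 (adjusted p = 0.100). Its other arm, miR-409-5p, changed by 0.26 (0.0805). MiR-667 was lower, with a change of -0.35 (0.0363), though its longest probe changed by -0.14 and each of its other probes by 0. This direction did not hold: under quantile normalization miR-667 passed as higher (0.56, adjusted p = 0.0261), and the call as lower was kept in 3 of the 9 fits that left out 1 array. The call of miR-409-3p was kept in 6 of 9. The members next in order were miR-543 (0.28), miR-666-3p (0.33), miR-341 (0.24), miR-382 (0.23), miR-136 (-0.31), miR-369-3p (0.35), miR-376b (0.33), miR-300 (0.22), miR-377 (0.26) and miR-495 (0.26), with adjusted p between 0.0733 and 0.150. Groups did not overlap for 17 members, 16 higher and 1 lower, which was 43.6% of the members and 46.5% of all tested miRNAs (20.4% higher and 26.1% lower).

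Both arms of a hairpin come from 1 precursor, so the star arms give a second reading of the same transcripts. This reading is not independent, because both arms share the arrays, slides and scaling. Counting star names, 16 hairpins had both arms tested. In monocularly deprived minus control both arms lay above 0 for 12 hairpins and below 0 for 1 (Mir431), and they went in opposite directions for 3. The 3 were Mir127, Mir136 and Mir411. Some signs rest on dim arms: miR-299 and miR-380-5p were each detected on 5 arrays, and miR-127*, which changed by -0.0056, on 6. In monocularly deprived minus dark-reared both arms lay above 0 for 14 hairpins and differed for 2. In dark-reared minus control both lay above 0 for 3, both below 0 for 7, and 6 differed. Of all 318 tested miRNAs, 186 lay above 0 in monocularly deprived minus control and 170 in monocularly deprived minus dark-reared. In dark-reared minus control 198 did. These are counts of single miRNAs, not of pairs of arms. The arms were counted only under the main scaling.

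The arms of Mir136 showed the widest gap between 2 bright arms. While miR-136 changed by -0.31 in monocularly deprived minus control, miR-136* measured -1.28, -1.01 and -1.35 on monocularly deprived arrays, against -1.29, -1.49 and -1.29 on control arrays, and changed by 0.15 (adjusted p = 0.342). The star arm of Mir411 changed by -0.01 beside the 0.34 of miR-411. Of the 12 tested star arms none was higher by limma, and miR-431* was lower (-0.46 ± 0.12 SE, adjusted p = 0.0184), beside 15.7% higher and 17.3% lower over all tested miRNAs. An unadjusted p under 0.05 in either direction was found for 4 of the 12, against 138 of all 318. The direction of miR-431* turned under scaling on all probes and under quantile normalization, to 0.10 and 0.23, and its brightest probe alone changed by -0.02.

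**Figure D4:**
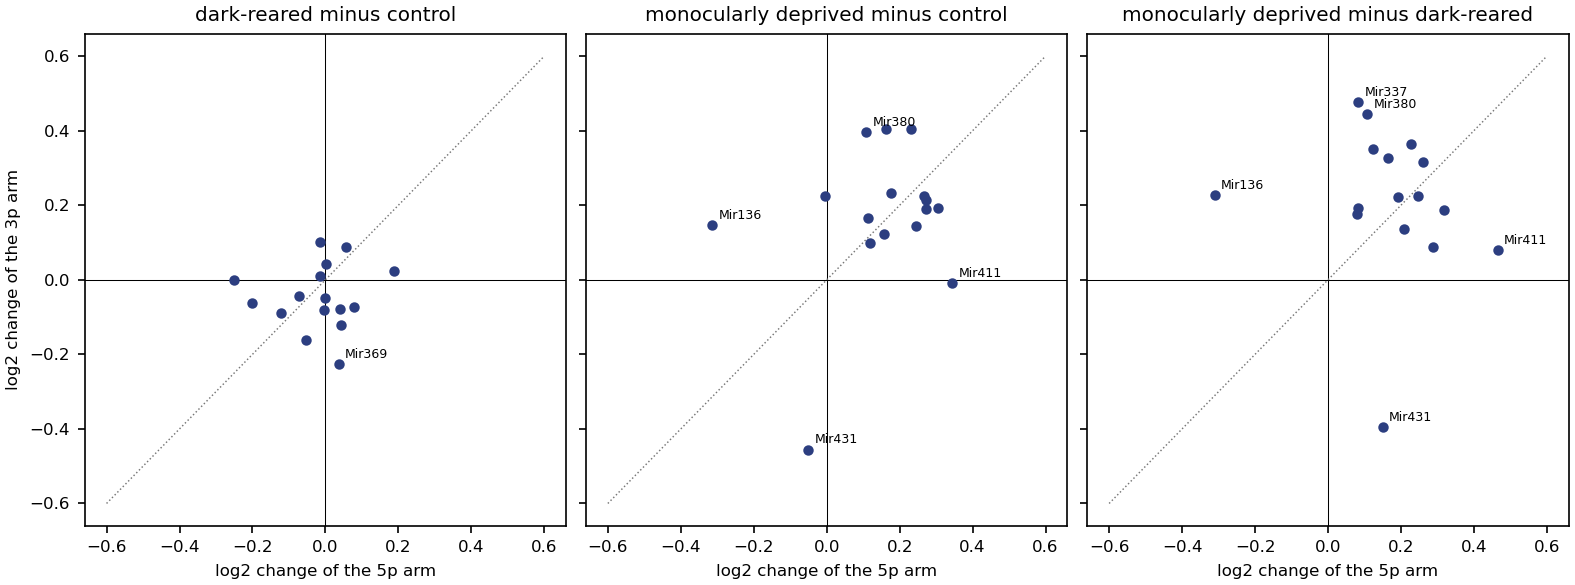
Log2 change of the 3p arm against that of the 5p arm for the 16 hairpins with both arms tested, with 1 point per hairpin and the dotted line marking equal change. In monocularly deprived minus control 12 hairpins lie right of and above 0, and Mir136 lies far left of 0 with a 3p arm above it; in dark-reared minus control the points gather around 0.

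The 4 neighbours within the cluster were all tested. MiR-329 was higher in monocularly deprived cortex, at -0.22, -0.02 and -0.34, against -0.59, -0.61 and -0.39 in control cortex (0.34 ± 0.11 SE, adjusted p = 0.0496). Its call was lost in 7 of the 9 fits that left out 1 array. MiR-134 was lower, at -6.83, -7.66 and -7.11 in monocularly deprived cortex and -6.43, -6.16 and -6.15 in control cortex (-0.96 ± 0.20 SE, adjusted p = 0.00834). The signal of miR-134 was dim, with probes well above background on 1 array of each group. Its longest probe, the brightest of the 4, changed by -0.33. MiR-381 (0.12) and miR-485 (0.25) did not pass the test.

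Position along the locus, GC content and signal level were set against the members' changes as a description. Pearson's r lay between -0.29 and 0.28 in all 9 pairings of a comparison with 1 of these features, over 37 or 39 members that share the same arrays. In monocularly deprived minus control, 5 of 27 Mir379-Mir410 members (18.5%) and 3 of 12 Meg3-side members (25%) were higher, beside 15.7% of all tested miRNAs. The difference between these shares was not tested.

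The tissue label was checked against lists of miRNAs enriched in cell types. All 11 neuronal names, such as miR-124 and miR-9, were detected and tested, and no list was without signal. In monocularly deprived minus control, 1 neuronal name was higher and 3 were lower, 2 of 3 vascular names were lower, and 2 of 4 epithelial names were higher. Of 5 microglial names 1 was lower, 1 oligodendrocyte name went each way, and no astrocyte or erythrocyte name passed. Over all tested miRNAs 15.7% were higher and 17.3% lower. Against dark-reared cortex 1 neuronal name was higher and 2 lower, and 1 vascular name was higher and 2 lower. There 1 microglial name was lower, 1 oligodendrocyte name went each way, and no other list had a call. Over all tested miRNAs 9.75% were higher and 18.9% lower in that comparison. The summed neuronal level ranged from 6.14 to 6.63 in monocularly deprived, 6.34 to 6.35 in dark-reared and 6.43 to 6.46 in control cortex. The summed erythrocyte level ranged from 1.43 to 1.59 in monocularly deprived, 0.53 to 1.39 in dark-reared and 0.41 to 1.35 in control cortex. In dark-reared minus control 1 neuronal name was lower and 1 epithelial name was higher, beside 0.314% of all tested miRNAs in each direction. The part of these lists in the members' changes was not tested.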

How the data were processed

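Single-colour (Cy3) Agilent miRNA arrays were used, 9 in all. Background-subtracted fluorescence intensity was produced, per the file headers, by the Agilent program Feature Extraction 10.1.1.1; the authors deposited these intensity values without scaling between arrays. The deposited series matrix held the same values (100% of spots equal within a relative difference of 1e-05) and served as an alternative. Intensities were averaged over the spots of a probe, leaving out 367 to 638 outlier spots per array, and then over the probes of a miRNA on the linear scale. They were divided by the 75th percentile over 433 probes well above background on all 9 arrays (401 to 1022 units), floored at the 1st percentile of detected values, and put on the log2 scale. The number of arrays limits the precision.

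The model of limma 3.58.1 (R 4.3.3) covered 318 miRNAs on 9 arrays with 3 group means (6 residual and 2.21 prior degrees of freedom). P-values are two-sided and adjusted by Benjamini-Hochberg over all 318, with a threshold of 0.05. The fit was tested on simulated data. Figures and sequences were made in Python 3.11.15. Members and lists were chosen with earlier results of these data known. Named were, per comparison, the members past the threshold (up to 12 per direction), filled to 20 by smallest p, with the 6 brightest, the 4 neighbours and every untested member; probes, star arms and miR-770-5p were described after their values were seen.

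Control and dark-reared replicates of the same number deviated together, with r of 0.32 to 0.89 over all miRNAs, and those numbers were taken to pair arrays. Replicates of different numbers in these groups had r of -0.83 to 0.61. Control replicate 2 went more closely with dark-reared replicate 3 (0.61) than with dark-reared replicate 2 (0.32), so the pairing is least certain there. Numbers of monocularly deprived arrays did not pair with either group (r of -0.38 to 0.21). Alternatives covered scaling, background correction, probe choice, floor, filter, the replicate block and leaving out each array.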

Additional observations from a re-analysis of the deposited data

How the results depend on the processing

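The calls of single members in comparisons with monocularly deprived cortex depended on scaling and background, while the 0 calls in dark-reared minus control did not, except that without a filter 1 member passed as lower, miR-668, which was detected on no array. Against control, the 9 calls became 31 with scaling on all miRNA probes, 0 without scaling, 0 with normexp, 0 with normexp without the 9 spots of very bright background (chosen after seeing the data), 5 with only the 2 groups compared and 5 with the replicate block. Against dark-reared cortex the 9 calls became 35, 0, 0, 0, 2 and 5 under the same settings, and 14 with quantile normalization. At an unadjusted limma p under 0.05 the settings without calls had 1, 0 and 8 members against control and 0, 0 and 5 against dark-reared cortex. Leaving out each array gave 2 to 8 calls in either comparison and 0 in dark-reared minus control; the lowest counts came without control replicate 2 (2 against control) and without dark-reared replicate 2 (2 against dark-reared). Scaling on all probes moved the median of all miRNAs to 0.62 against control and to 0.70 against dark-reared cortex.

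The median of the members less that of all tested miRNAs stayed above 0 in both comparisons under every setting run. Against control (0.09 as reported) it was 0.0386 with quantile normalization, 0.31 with normexp, 0.0386 with normexp without the bright-background spots, 0.11 with the brightest probe, 0.10 without a filter, 0.0651 over miRNAs detected on all 9 arrays, 0.0766 over those well above background on all 9 (added after seeing the data), 0.11 with a floor at the 5th percentile, 0.0691 with only the 2 groups, and 0.0754 to 0.11 leaving out each array. Against dark-reared cortex (0.19) it was 0.36 with normexp, 0.12 with quantile normalization or without a filter, and 0.15 to 0.23 leaving out each array. In dark-reared minus control (-0.08) it stayed below 0, from -0.11 to -0.01 leaving out each array, but was -3.4e-05, near 0, without a filter.

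Directions turned as follows. With normexp, against control, miR-323-3p changed by -0.0676, miR-337-3p by -0.11, miR-380-3p by -0.0574, miR-409-5p by -0.0163, miR-411 by -0.0540 and miR-434-5p by -0.0458; against dark-reared cortex, miR-323-3p changed by -0.0221, miR-337-3p by -0.0392, miR-409-3p by -0.17 and miR-434-5p by -0.00086. None of these passed the test. Without scaling, miR-127 changed by -0.00833 against control. With normexp without the bright-background spots, miR-134 (0.0764), miR-431* (0.0893) and miR-667 (0.0988) turned against control. With quantile normalization, miR-667 (0.0319) and miR-431* (0.23) turned against control, and miR-667 (0.56, passing as higher with an adjusted limma p of 0.0261) and miR-431* (0.48) against dark-reared cortex. With scaling on all probes, miR-431* turned against control (0.10) and against dark-reared cortex (0.28), as did miR-667 against dark-reared cortex (0.33). With the brightest probe, miR-431* turned against dark-reared cortex (0.16). The cause was not tested. Signal over background limits miR-667, miR-134, miR-299, miR-369-3p, miR-380-5p, miR-539 and miR-665, whose probes were not well above background on every array.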
